A study of Rattus norvegicus with 2 samples.

Results

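Thyroid hormone handling was described through 6 genes, Crym, Dio2, Dio3, Thra, Thrb and Klf9, in single cells of the developing rat cochlear duct. The members were chosen by symbol from a list, and 5 of the 6 were found among the 32623 gene rows of the count tables. These were Crym (ENSRNOG00000061215), Dio3 (ENSRNOG00000052017), Thra (ENSRNOG00000009066), Thrb (ENSRNOG00000006649) and Klf9 (ENSRNOG00000014215). Dio2 was not among the symbols of the files and was not analysed here. The study dissociated cochlear duct tissue of Sprague-Dawley rats, pooled from many animals with no treatment named, at postnatal day 1 (P1) or postnatal day 7 (P7), with 1 droplet library at each age. Age therefore cannot be told apart from the library, no test between the ages was possible, and every interval given here covers counting error only.

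Thyroid hormone is needed for the inner ear to mature around the onset of hearing. The hormone enters cells through membrane transporters, and the deiodinases, encoded by Dio1, Dio2 and Dio3, convert it: the Dio2 enzyme makes the active form T3 from T4, and the Dio3 enzyme inactivates both. Inside the cell Crym encodes mu-crystallin, a cytosolic protein that binds T3. Thra and Thrb encode the nuclear receptors, which act on target genes with retinoid X receptors and with corepressors or coactivators. Klf9 encodes a Krüppel-like transcription factor, a known target of the hormone that glucocorticoids also induce. Thrb is known as a deafness gene, since people and mice that lack its function lose hearing.

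The limits on cells stated by the study left 12779 of 14068 barcodes at P1 and 12581 of 14501 at P7, with medians of 6565 and 6878 unique molecular identifiers (UMIs, counted RNA molecules) per cell. The libraries shared 53 kept barcodes. The submitters labelled the cells as those of the greater epithelial ridge, the tall epithelium beside the hair cells. In the data, only 189 P1 cells and 93 P7 cells passed an epithelial marker gate, of which 164 and 85 carried at least 2 of 8 ridge markers. Among the cells outside the epithelial gate, 302 of 12590 at P1 and 599 of 12488 at P7 also carried at least 2. Mesenchymal classes held 8818 and 7158 cells, so most of each library did not match that label. Cells were sorted into 14 classes by marker genes, none of which was a member. The class names stand for cells like the named type or rich in the named genes, and the cut-offs were settled after marker counts had been seen. Of these, 13 had at least 50 cells at both ages, and neurons had 322 cells at P1 and 18 at P7 and were not compared. Levels are in CPM, the UMIs of a gene summed over the cells of a class and scaled to a fixed total for that class. Differences between the ages are given as the log2 ratio of the P7 level to the P1 level.

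Over all kept cells, Thrb was higher at P7 than at P1, and Klf9 was lower. Thrb had 17.2 CPM at P1 and 39.6 CPM at P7, or 1.21 as the log2 of P7 over P1 (95% interval 1.12 to 1.29). Klf9 had 146 CPM and 75.2 CPM, a log2 ratio of -0.95 (-0.99 to -0.91). The other receptor gene, Thra, moved less, from 242 CPM to 187 CPM (log2 ratio -0.37, -0.40 to -0.34). Crym was the most abundant member, at 2716 CPM and 2318 CPM (log2 ratio -0.23, -0.24 to -0.22). The mix of cells also differed, with 8818 and 7158 mesenchymal cells and 1879 and 3976 glia. Within all mesenchyme the log2 ratios were -0.09 for Crym, -0.17 for Thra, 1.80 for Thrb and -0.97 for Klf9. Within all glia they were 0.08, -0.61, 0.92 and -1.28. The part of the mix in the values over all kept cells was not tested. Dio3 was close to absent, with 1 UMI at P1 and 7 UMIs at P7 in all kept cells.

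These values can be read against all genes. With 5 CPM added to each level and at least 50 UMIs over both libraries, 14860 genes could be compared, of which 3.03% were over 2-fold higher at P7 and 2.19% over 2-fold lower. Thrb passed 2-fold on this scale (log2 ratio 1.01), above 97.0% of the genes. Klf9 (-0.91) did not pass 2-fold and lay above 2.98% of them. Thra and Crym lay above 15.9% and 23.4%. The median of all genes was 0.02, so the scaling placed the middle of the genes near no difference.

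Thrb, the beta receptor, was highest in the epithelium at both ages. Epithelial cells held 212 Thrb UMIs at P1 and 203 at P7, or 112 CPM (97.4 to 128) and 166 CPM (144 to 191). No other class overlapped the epithelium in these intervals at either age. Epithelial cells with ridge markers had 119 CPM and 179 CPM. At P1 the next classes were Sfrp4-Dlx5-Matn4 mesenchyme at 36.4 CPM and neurons at 28.8 CPM, whose intervals overlapped. At the lower end stood Gpc3-Dcn fibroblasts with 4.54 CPM, myelinating glia with 3.34 CPM, and pericytes and mural cells with 2.65 CPM.

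**Figure D1:**
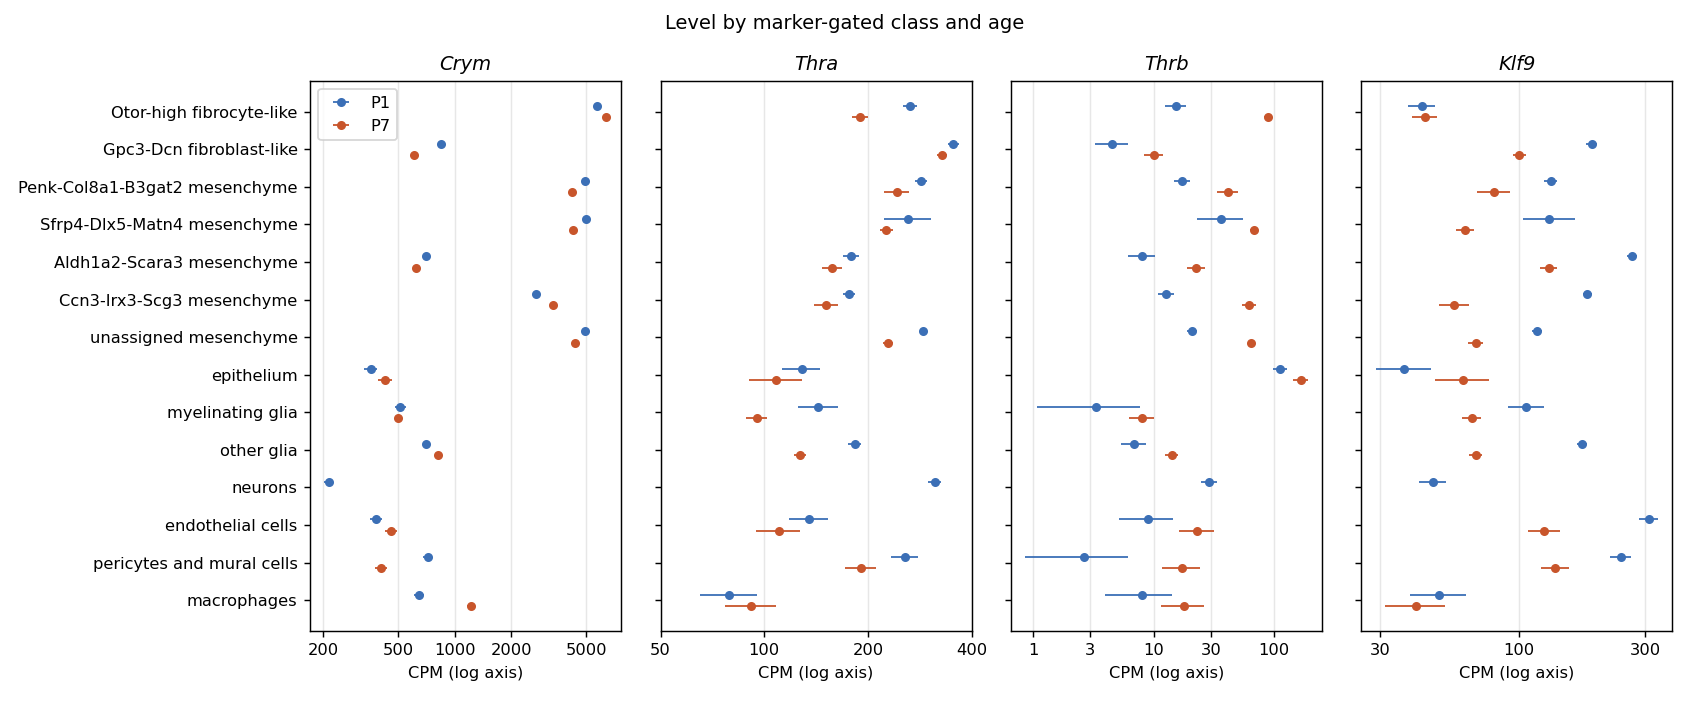
Level of Crym, Thra, Thrb and Klf9 (CPM, log axis) in each marker-gated class at P1 (blue) and P7 (orange). Points are summed over the cells of a class of at least 50 cells in 1 library, and bars are exact 95% Poisson intervals for counting error only. The Thrb level of the epithelium lies to the right of every other class, at 112 CPM and 166 CPM, and Crym spans from 214 CPM in P1 neurons to 6401 CPM in P7 Otor-high fibrocytes.

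All 13 compared classes had a higher Thrb level at P7. In 12 of them the interval of the log2 ratio lay above 0, and in myelinating glia, with 5 and 70 UMIs, it reached from -0.02 to 2.93. In Otor-high fibrocytes, connective tissue cells rich in the otoraplin gene Otor, Thrb went from 15.4 CPM (102 UMIs) to 89.0 CPM (675 UMIs). This was 5.78-fold, a log2 ratio of 2.53 (2.23 to 2.85). The class stood sixth in order at P1, where it overlapped its neighbours, and second at P7, where it did not. Ccn3-Irx3-Scg3 mesenchyme followed, with 12.8 CPM and 62.0 CPM (log2 ratio 2.28, 1.99 to 2.57). The ratio in pericytes and mural cells was as large (2.70) but rested on 5 UMIs at P1 (1.33 to 4.41). The smallest ratio was that of the epithelium (0.57, 0.29 to 0.86), which began from the highest level.

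In Otor-high fibrocytes, 6.84% of 9684 genes were over 2-fold higher at P7 and 2.65% over 2-fold lower, and Thrb lay above 99.5% of genes (log2 ratio 2.20 with 5 CPM added). In Gpc3-Dcn fibroblasts the shares were 4.36% and 3.31%, and Thrb did not pass 2-fold (0.66). In other glia, those without the myelin gate, they were 4.15% and 2.75%, and Thrb again did not pass (0.69). With 1 marker fewer required for a class, the log2 ratio of Thrb in other glia was 1.84 in place of 1.04. Macrophages also read higher at P7, with 11 UMIs (7.99 CPM) and 26 UMIs (17.8 CPM). At P7 the levels of Gpc3-Dcn fibroblasts (10.1 CPM), myelinating glia (8.03 CPM) and other glia (14.1 CPM) lay below that of macrophages. Pericytes and mural cells (17.2 CPM, 11.8 to 24.1) were no higher than macrophages (11.6 to 26.0) either. Free RNA in the droplets was not removed, and its part in such low levels was not tested.

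**Figure D2:**
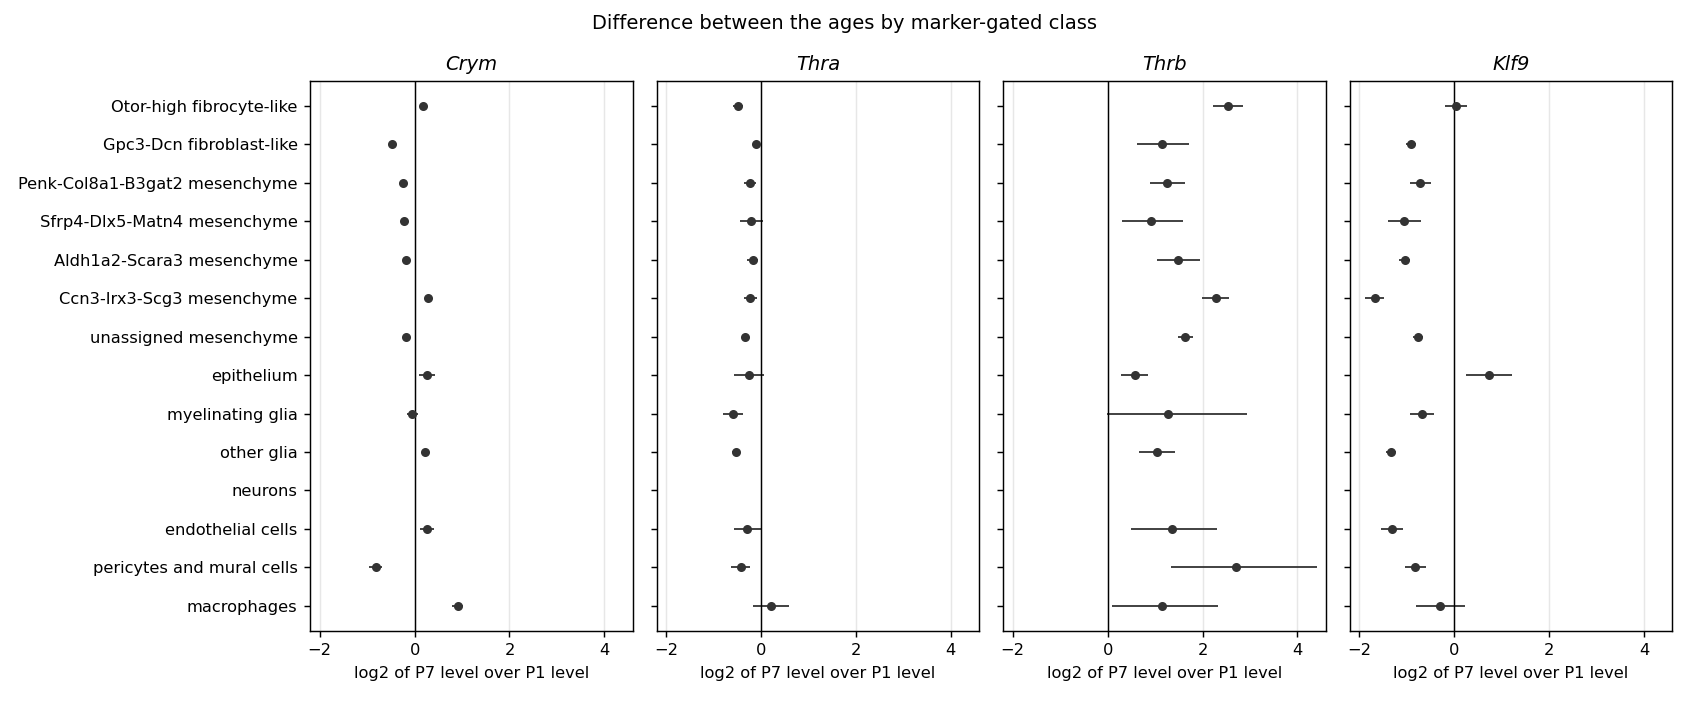
The log2 ratio of the P7 level to the P1 level for Crym, Thra, Thrb and Klf9 in the 13 classes with at least 50 cells at each age. Bars are exact conditional binomial 95% intervals for counting error only. Every Thrb point lies above 0, while Klf9 lies below 0 in most classes and above it in the epithelium (0.73).

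Within a library, the dividing state went with a lower Thrb level in mesenchyme with its classes pooled. Dividing mesenchymal cells had 6.99 CPM against 15.7 CPM in non-dividing ones at P1, and 27.1 CPM against 53.0 CPM at P7. The log2 ratios of dividing to non-dividing cells were -1.16 (-1.61 to -0.75) and -0.97 (-1.26 to -0.69). Both states were higher at P7, by log2 ratios of 1.96 and 1.76. In glia the non-dividing cells had 5.80 CPM and 13.1 CPM, while the dividing cells had 8.74 CPM and 9.28 CPM (log2 ratio 0.09, -0.62 to 0.84). The pooled mesenchymal classes differed in Thrb level and in dividing share. Dividing cells made up 11.5% of Gpc3-Dcn fibroblasts and 2.12% of Otor-high fibrocytes at P1, and 6.89% and 1.52% at P7. The part of this class mix in the ratios of dividing to non-dividing cells was not tested.

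Detection followed the level. Each cell was thinned to 2000 UMIs, which left out 252 shallower cells at P1 and 711 at P7, so that shares could be compared across depths. In Otor-high fibrocytes, 3.14% of thinned P1 cells (2.10% to 4.50%) and 14.5% of thinned P7 cells (12.2% to 17.1%) had a Thrb UMI. At their own depth the shares were 9.02% and 47.9%, with medians of 6808 and 8600 UMIs per cell. In the epithelium the thinned shares were 17.7% and 25.3%, with overlapping intervals. Macrophages gave 1.95% and 2.98% after thinning.

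**Figure D3:**
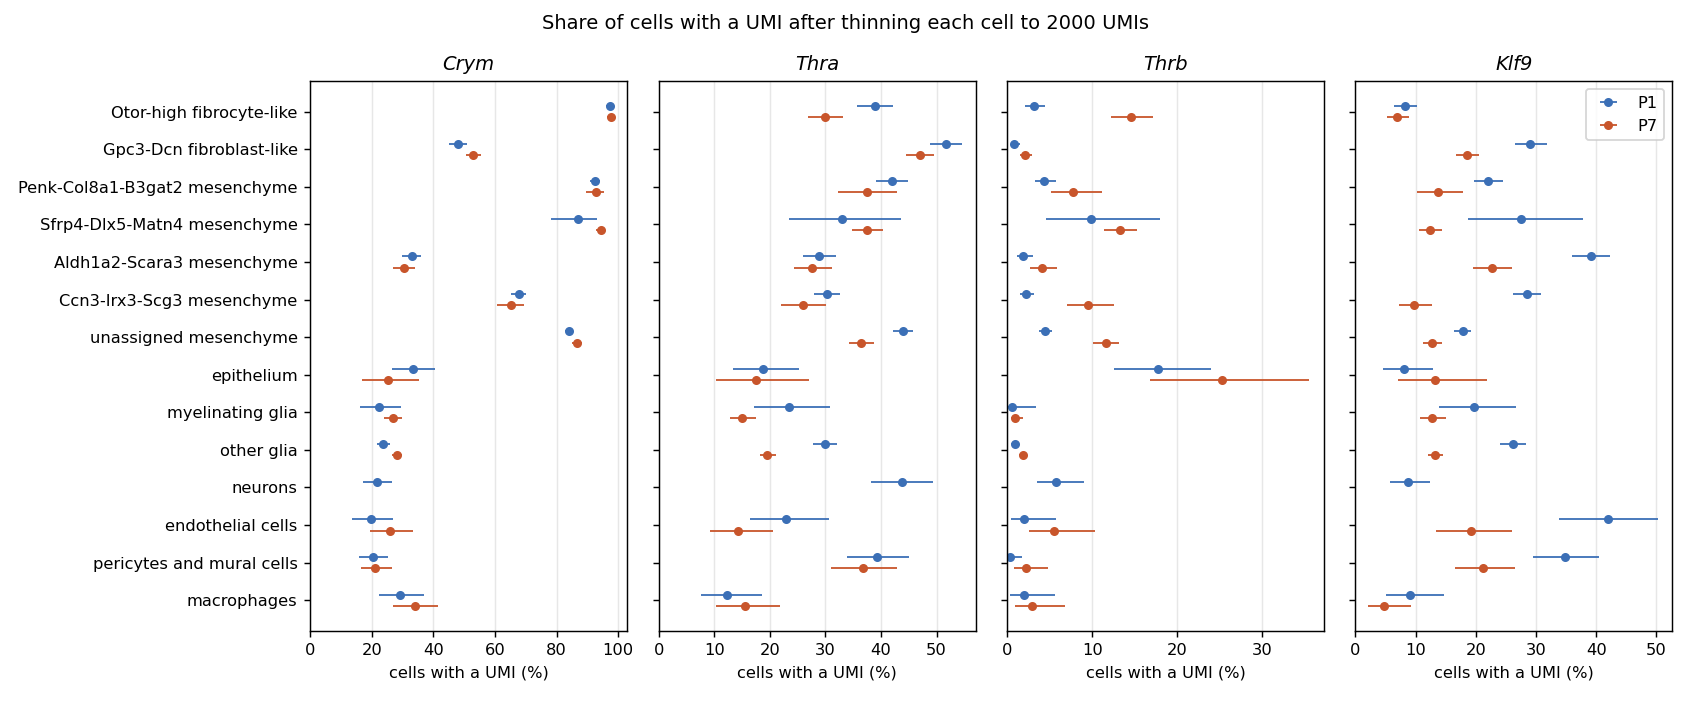
Share of cells (%) with at least 1 UMI of Crym, Thra, Thrb or Klf9 after each cell was thinned to 2000 UMIs, by class at P1 (blue) and P7 (orange). Bars are exact 95% Clopper-Pearson intervals. Thrb reaches 14.5% of Otor-high fibrocytes at P7 against 3.14% at P1, and Crym is found in over 97% of that class at both ages.

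Thra, the alpha receptor, was more even across classes. The count of a gene here does not part its splice forms, of which only some bind the hormone. Gpc3-Dcn fibroblasts had the highest level at both ages, 354 CPM and 328 CPM, and macrophages the lowest, with 79.2 CPM and 91.6 CPM. At P7 the intervals of macrophages and myelinating glia (95.0 CPM) overlapped. Neurons followed at P1 with 313 CPM. The P7 level was lower in 10 of 13 classes with the interval below 0, and in the other 3 (Sfrp4-Dlx5-Matn4 mesenchyme, epithelium and macrophages) the interval held 0. The ratios ran from -0.60 in myelinating glia to 0.21 in macrophages, and no class passed 2-fold. In Otor-high fibrocytes Thra went from 265 CPM to 190 CPM (log2 ratio -0.48, -0.59 to -0.38), while Thrb was higher in the same class.

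The balance of the receptors differed between the ages. Of the Thra and Thrb UMIs together, Thrb made up 6.62% at P1 and 17.5% at P7 over all kept cells. In Otor-high fibrocytes its share was 5.48% (4.49% to 6.62%) and 31.9% (29.9% to 34.0%). In Ccn3-Irx3-Scg3 mesenchyme it was 6.77% and 29.1%. In the epithelium it was already 46.6% at P1 and was 60.6% at P7. Gpc3-Dcn fibroblasts kept a low share, 1.27% and 2.99%. The share compares classes and ages with each other, since the counting of each gene may differ in efficiency.

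**Figure D4:**
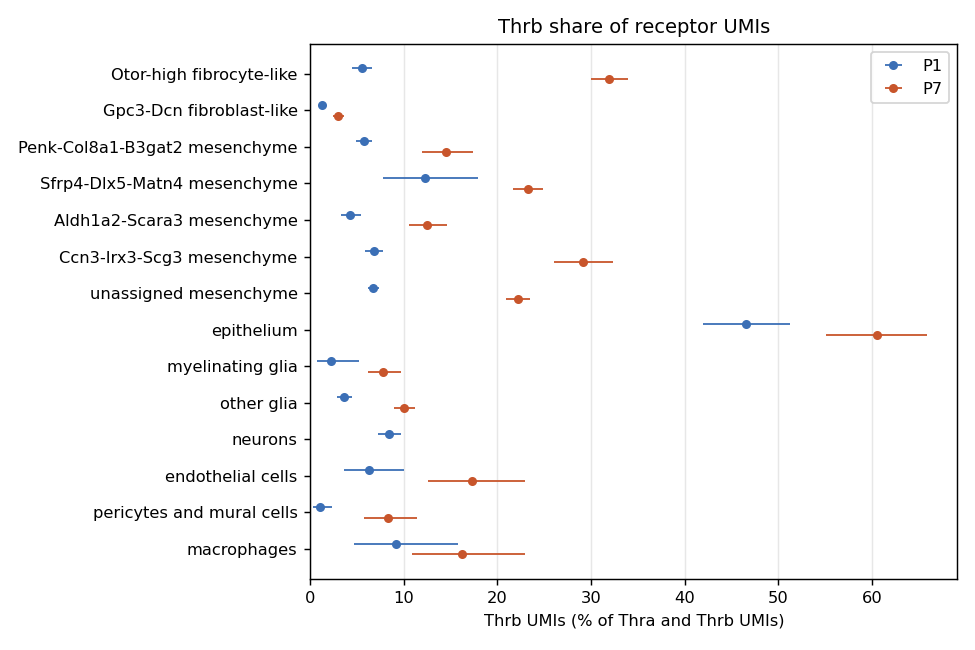
Thrb UMIs as a percentage of Thra and Thrb UMIs in each class at P1 (blue) and P7 (orange), with exact 95% Clopper-Pearson intervals for counting error only. The epithelium lies at 46.6% and 60.6%, and Otor-high fibrocytes move from 5.48% to 31.9%.

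Single cells showed the same shift. Of Otor-high fibrocytes, 6.68% had UMIs of both receptors at P1 and 37.0% at P7, and 73.4% and 41.5% had Thra UMIs alone. Of epithelial cells, 24.9% and 46.2% had both, and 19.0% and 12.9% had Thrb alone. These shares are at the cells' own depth, which was greater at P7 in both classes (medians of 8680 UMIs and 12234 UMIs in the epithelium).

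Klf9 had an order of its own. At P1 the highest levels were in endothelial cells (310.02 CPM, 285 to 337), Aldh1a2-Scara3 mesenchyme (267 CPM) and pericytes and mural cells (243 CPM). The lowest were in the epithelium (37.0 CPM), Otor-high fibrocytes (43.2 CPM), neurons (47.4 CPM) and macrophages (50.1 CPM), whose neighbours in the order overlapped. Epithelium and Otor-high fibrocytes, the classes with the most Thrb at P7, ranked 10 and 12 of 13 for Klf9 at P7 (61.5 CPM and 44.3 CPM). There the interval of the epithelium overlapped its neighbours. At P1 they ranked 14 and 13 of 14 for Klf9, but 1 and 6 of 14 for Thrb. Across 27 groups of class and age, the Pearson correlation of the Klf9 and Thrb levels was -0.58, a description of groups that share libraries and free RNA. The groups pool both ages, and in most classes Thrb was higher and Klf9 lower at P7, so the difference between the libraries enters this value.

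Klf9 was lower at P7 in 10 classes with the interval below 0. The lowest ratio was that of Ccn3-Irx3-Scg3 mesenchyme, from 182 CPM to 57.0 CPM (log2 ratio -1.68, -1.88 to -1.48). In other glia it went from 173 CPM to 68.8 CPM (-1.33), and in endothelial cells from 310.02 CPM to 125 CPM (-1.31). In Otor-high fibrocytes the levels were 43.2 CPM and 44.3 CPM (0.04, -0.19 to 0.27), and in macrophages 50.1 CPM and 41.0 CPM (-0.29, -0.81 to 0.23). The epithelium alone had a higher level with an interval above 0, from 37.0 CPM (70 UMIs) to 61.5 CPM (75 UMIs), a log2 ratio of 0.73 (0.24 to 1.22). After thinning, the epithelial shares of cells with a Klf9 UMI were 8.06% and 13.2%, with overlapping intervals. With 1 marker fewer required for a class, the epithelial log2 ratio was 0.26.

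A set of 7 genes of the early response, of stress or of the glucocorticoid response was set beside Klf9, chosen after the members' values were seen. Over all kept cells the early response genes were lower at P7, with log2 ratios of -1.72 for Fos, -0.89 for Jun and -2.29 for Egr1. The glucocorticoid targets Fkbp5 (-1.52) and Per1 (-1.85) were lower too, while Tsc22d3 had 148 CPM and 139 CPM (-0.09). The heat shock gene Hspa1b was higher, with 9.22 CPM and 30.8 CPM (1.74). In Ccn3-Irx3-Scg3 mesenchyme, where the Klf9 ratio was lowest, Fos was -1.36, Egr1 -1.86, Jun 0.17 (0.07 to 0.27) and Hspa1b 3.50. There Fkbp5 was -0.36 (-1.17 to 0.37), Per1 -1.11 (-2.38 to -0.03) and Tsc22d3 0.02 (-0.11 to 0.15). In the epithelium, where Klf9 was higher at P7, Fos was -2.22, Jun -2.41 and Egr1 -3.00. Tsc22d3 was higher there, with 96.1 CPM and 184 CPM (0.93, 0.64 to 1.22), and so was Hspa1b (2.06). Fkbp5 (4 UMIs and 0 UMIs) and Per1 (0 UMIs and 1 UMI) were too few to compare in the epithelium. The part of these genes in the Klf9 difference was not tested.

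Crym divided the mesenchyme into rich and poor classes. Otor-high fibrocytes had the highest level, 5685 CPM at P1 and 6401 CPM at P7 (log2 ratio 0.17). Penk-Col8a1-B3gat2 mesenchyme had 4955 CPM and 4182 CPM, Sfrp4-Dlx5-Matn4 mesenchyme 4968 CPM and 4257 CPM, and Ccn3-Irx3-Scg3 mesenchyme 2724 CPM and 3322 CPM. Gpc3-Dcn fibroblasts (848 CPM and 612 CPM) and Aldh1a2-Scara3 mesenchyme (709 CPM and 625 CPM) were near the level of cells outside the mesenchyme. Otor-high fibrocytes exceeded Gpc3-Dcn fibroblasts 6.70-fold at P1 and 10.5-fold at P7, within the same library.

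Among Otor-high fibrocytes, those with at least 3 UMIs of Otos, the otospiralin gene of mature fibrocytes, had less Crym than those with none. Otos is itself among the 8 markers that gate this class, so cells without it had to enter by the other markers. The part of that selection in the differences was not tested. The levels were 3140.1 CPM against 6154 CPM at P1, and 4282 CPM against 7582 CPM at P7, log2 ratios of -0.97 (-1.03 to -0.91) and -0.82 (-0.86 to -0.79). Thrb had 15.0 CPM against 14.5 CPM at P1 (log2 ratio 0.05, -1.02 to 0.97) and 75.7 CPM against 93.6 CPM at P7 (-0.31, -0.58 to -0.04). Dividing mesenchyme had less Crym than non-dividing mesenchyme, by a log2 ratio of -0.16 at P1 and -0.78 at P7. Both groups pool the mesenchymal classes, and the part of the class mix was not tested.

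Low Crym levels outside these classes were set against macrophages. Macrophages, assumed here to lack Crym, had 647 CPM at P1 and 1216 CPM at P7. Of them, 47.8% and 51.6% had a Crym UMI at medians of 7729 and 7296 UMIs. Otor, a fibrocyte gene, was higher at P7 in macrophages as well, at 1538 CPM and 3102 CPM. There were 0.421 and 0.392 Crym UMIs per Otor UMI in macrophages, against 0.445 and 0.347 over all kept cells. In the epithelium the ratio was 0.437 and 0.264, in other glia 0.446 and 0.335, in endothelial cells 0.543 and 0.293, and in pericytes and mural cells 0.579 and 0.276. The ratio in Penk-Col8a1-B3gat2 mesenchyme was 1.67 and 1.15, far above these, and that of Aldh1a2-Scara3 mesenchyme 0.0890 and 0.0585, far below. The level of free RNA was not measured, and its part in the Crym UMIs of macrophages, epithelium, glia, endothelial cells and pericytes was not tested, so these are not read as expression in those cells.

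Over the 13 classes the Crym ratio of P7 to P1 had its interval above 0 in 6, below 0 in 6 and across 0 in 1. The range ran from -0.82 in pericytes and mural cells to 0.91 in macrophages, both classes of low level. The counts include the classes outside the mesenchyme, whose Crym UMIs are not read as expression. In the mesenchyme the ratio was above 0 in Ccn3-Irx3-Scg3 mesenchyme (0.29) and Otor-high fibrocytes (0.17). It was below 0 in Gpc3-Dcn fibroblasts (-0.47) and in Penk-Col8a1-B3gat2 (-0.24), Sfrp4-Dlx5-Matn4 (-0.22), Aldh1a2-Scara3 (-0.18) and unassigned mesenchyme (-0.17). With 5 CPM added, the median of all genes in Otor-high fibrocytes was 0.14. Crym lay above 53.0% of genes there, so its ratio was near the middle of the genes of that class. After thinning, 97.3% and 97.7% of Otor-high fibrocytes had a Crym UMI, with medians of 10 and 12 UMIs per cell. In Gpc3-Dcn fibroblasts the shares were 48.0% and 53.0% while the level was lower at P7, so no order of the ages is read from them.

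Dio3, the inactivating deiodinase, had its single P1 UMI in Aldh1a2-Scara3 mesenchyme. Of the 7 at P7, 2 were in Sfrp4-Dlx5-Matn4 mesenchyme, 2 in other glia, and 1 each in Ccn3-Irx3-Scg3 mesenchyme, unassigned mesenchyme and myelinating glia. The log2 ratio over all kept cells was 2.88, with an interval from -0.08 to 8.38. No epithelial cell had a Dio3 UMI, in 189 cells at P1 and 93 at P7, which allows shares of cells with a UMI of up to 1.59% and 3.23%. At this depth no difference between the ages was detectable.

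A list of 29 further genes of the pathway gave a setting for the members. Of these, 25 had at least 50 UMIs over both libraries, of which 2 were over 2-fold higher and 1 over 2-fold lower at P7 with 5 CPM added, and their median log2 ratio was 0.16 against 0.02 for all genes. The shares of all genes called were 3.03% and 2.19%, and so few calls are not read as a result about the list. Slco1c1, a transporter of T4, went from 30.9 CPM to 128 CPM (log2 ratio 2.04, 1.99 to 2.10). Its highest class was endothelial cells at P1 (90.02 CPM) and Aldh1a2-Scara3 mesenchyme at P7 (315 CPM). Mbp, the myelin basic protein gene and a known target of the hormone, went from 158 CPM to 685 CPM (2.11), in a library where myelinating glia were 7.37% of kept cells against 1.27% at P1. Within myelinating glia Mbp had 2005 CPM and 4609 CPM, and within other glia 829 CPM and 982 CPM, so both the share of the class and the level within it were higher at P7. The lower gene was Nrgn, the neurogranin gene, with 24.99 CPM and 7.74 CPM (-1.69). In Otor-high fibrocytes it had 150 CPM (991 UMIs) and 2.64 CPM (20 UMIs), a log2 ratio of -5.83 (-6.54 to -5.19). Endothelial cells, its highest class at both ages, had 158 CPM and 129 CPM.

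The remaining genes are ordered by role. Among transporters, Slc7a8, an amino acid exchanger that also carries T3, had the highest level, 83.5 CPM and 130 CPM (0.64). Its ratio differed in direction among classes, with 378 CPM and 218 CPM in Otor-high fibrocytes (-0.80, -0.89 to -0.71) and 62.4 CPM and 198 CPM in Gpc3-Dcn fibroblasts (1.67, 1.53 to 1.80). Of the retinoid X receptor genes, Rxrb had the most over all kept cells, 36.5 CPM and 51.1 CPM (0.49). In other glia Rxrg had more, with 94.5 CPM and 106 CPM against 33.7 CPM and 61.3 CPM for Rxrb. The corepressor gene Ncor1 had 175 CPM and 102 CPM (-0.78). Hr, a corepressor gene induced by the hormone, had 39 UMIs and 461 UMIs, or 0.398 CPM and 4.95 CPM (3.64, 3.16 to 4.15), and did not pass 2-fold once 5 CPM was added. Wsb1, whose product marks the Dio2 enzyme for breakdown, had 29.97 CPM and 49.5 CPM (0.73). Nr1d1, which overlaps Thra on the opposite strand, had 13.1 CPM and 6.31 CPM (-1.05). The Nr1d1 ratio differed in direction among classes, with -2.93 in Otor-high fibrocytes, -2.42 in other glia and 0.75 (0.25 to 1.26) in Gpc3-Dcn fibroblasts. Ttr, encoding the carrier transthyretin, had 4.98 CPM and 9.003 CPM (0.85), and Secisbp2, which serves the making of selenoproteins such as the deiodinases, 29.99 CPM and 32.0 CPM (0.10). Dio1 had 1 UMI and 8 UMIs.

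**Figure D5:**
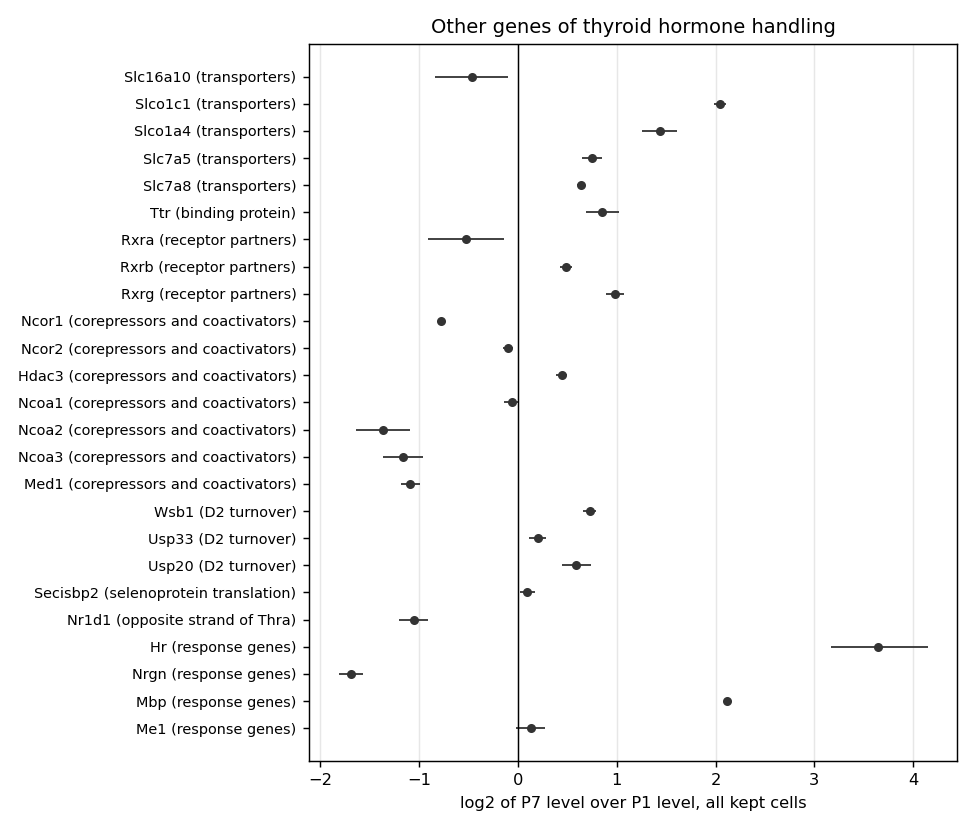
The log2 ratio of the P7 level to the P1 level over all kept cells for the 25 listed pathway genes with at least 50 UMIs, with their roles. Bars are exact conditional binomial 95% intervals for counting error only, with no CPM added. Hr (3.64), Mbp (2.11) and Slco1c1 (2.04) lie farthest to the right and Nrgn (-1.69) farthest to the left.

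In the same classes the listed genes were counted as for the members. In Otor-high fibrocytes 19 of 29 could be compared, of which 3 were over 2-fold higher and 2 lower, where 6.84% and 2.65% of all genes were. In Gpc3-Dcn fibroblasts 21 could be compared, with 4 higher and none lower, against 4.36% and 3.31% of all genes. The higher genes of both classes included the myelin gene Mbp. It had 5.89 CPM and 23.2 CPM in Otor-high fibrocytes, and 6.24 CPM and 36.2 CPM in Gpc3-Dcn fibroblasts. The part of free RNA in these levels was not tested. In other glia 23 could be compared, with 2 higher and 1 lower, against 4.15% and 2.75%.

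Across 27 groups of class and age and 14847 genes, the genes whose levels followed each member most closely were named by Pearson correlation. For Crym these were Col9a3 (0.87), Rab26 (0.86) and Nf1x (0.86). For Thra they were Nrep (0.92), Podxl2 (0.90) and Dpp6 (0.86). Thrb was followed by Cpz (0.89), Scx (0.86) and AABR07071876 (0.86), and Klf9 by Phldb2 (0.84), Atl3 (0.83) and Ly6e (0.80). The groups share 2 libraries, so these values are a description.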

How the data were processed

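Cells dissociated from rat cochlear duct were profiled with a droplet kit that reads the 3′ end of transcripts, in 1 library of pooled animals at each of P1 and P7. Per the file headers, the deposited counts are UMI counts per gene and cell from Cell Ranger 3.1.0, and per the study's methods reads were aligned to rn6. Cells with over 500 and under 5000 genes, at least 500 UMIs and a mitochondrial share under 25% were kept. No doublet caller was run and free RNA was not removed. The members and lists were chosen with earlier results of these data known. Classes needed a fixed number of detected markers (3 to 5 for the main types), a lead of 0.2 in the share of markers over other types, or, in mesenchyme, a mean z-score of at least 0.5 with a lead of 0.25. Cells of 2 classes were left out, and 1118 P1 and 997 P7 mesenchymal cells lay near the score limit. Named genes were the members, the 29 listed pathway genes past 2-fold or highest in their role, and the 3 genes most correlated with each member. Hr and the genes set beside Klf9 were named after their values were seen. One pathway gene was left out of the list and its counts and is not reported here. Levels were CPM of summed counts with exact Poisson intervals, ratios had exact conditional binomial intervals and shares Clopper-Pearson intervals, all at 95%. A share of 0 was bounded by 3 counts. Python 3 with scipy and numpy was used, and ratios and gates were tested on simulated data. The simulated cells were drawn from the profiles of the gated classes, so they cannot show that the gates find the named types. The simulated ratios held counting error only. Alternatives changed the cell limits, the scaling, the gates, the pseudocount of 5 CPM and the filter of 50 UMIs.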

Additional observations from a re-analysis of the deposited data

Results flagged for a closer look

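Klf9 went in opposite directions in different classes. Its log2 ratio of P7 to P1 was 0.73 in the epithelium, on 70 and 75 UMIs, and -1.68 in Ccn3-Irx3-Scg3 mesenchyme, on 2401 and 227 UMIs. Crym did so too, with 0.91 in macrophages and -0.82 in pericytes and mural cells, both classes of low Crym level, in which the part of free RNA was not tested. With 1 library at each age, the difference between classes was not tested.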

How the results depend on the processing

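With every deposited barcode, the log2 ratios over all kept cells were -0.18 for Crym, -0.41 for Thra and 1.12 for Thrb. With a mitochondrial limit of 10% they were -0.15 for Crym, -0.28 for Thra, 1.49 for Thrb and -0.999 for Klf9. With scaling to UMIs outside mitochondrial, ribosomal protein and haemoglobin genes they were -0.31 for Crym, -0.46 for Thra and -1.04 for Klf9. As a mean over cells they were -0.44 for Crym, -0.40 for Thra, 1.07 for Thrb and -1.02 for Klf9. After thinning to 2000 UMIs they were -0.42 for Crym, 1.10 for Thrb and -1.04 for Klf9, and without cells over 20000 UMIs -0.29 for Crym. These 18 of 24 values lay outside the counting interval of the reported ratio, and in all 24 the direction was that reported; the cause was not tested. With a pseudocount of 1 CPM, 977 genes were over 2-fold higher and 894 lower, against 451 and 325, since a smaller pseudocount lets low genes pass. In 5 classes and under 4 alternatives, 59 of 80 ratios stayed within the counting interval. Most of those that did not were ratios of Crym. The Crym ratio ran from 0.16 to 1.005 in other glia and from 0.09 to 0.84 in the epithelium. In Otor-high fibrocytes it ran from 0.06 to 0.24. Klf9 in Otor-high fibrocytes ran from -0.04 to 0.06, Thrb in that class from 2.21 to 2.71, and Klf9 in the epithelium from 0.26 to 0.73. Over all kept cells, shares at the cells' own depth differed between the ages in the same direction as thinned shares for all 4 genes. Within classes this did not always hold. The shares for Klf9 in Otor-high fibrocytes and for Crym in the epithelium were higher at P7 at the cells' own depth. After thinning both shares were lower at P7, with overlapping intervals. Depth limited Dio3, and 1 library at each age limits every comparison. No paired analysis was possible because each age has 1 library and no test was made.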
